A study of Mus musculus with 3 samples.

Results

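The genes described here are the TNF superfamily ligands and receptors that carry a Tnfsf or Tnfrsf symbol, followed through immune cells of the mouse lung before and after lung transplantation. Every gene expression feature whose symbol begins with Tnfsf or Tnfrsf was taken, which gave 32 of 32285 genes: 11 ligands, 20 receptors and Tnfsf13os, an antisense RNA that overlaps the ligand gene Tnfsf13. The choice used the symbol only and no measured value.

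The cells came from 3 droplet single-cell libraries whose labels give the strain as C57BL/6J (B6), each made from the pooled left lungs of 2 mice. The naive library came from lungs that were not transplanted. The other libraries came from left lungs of CD45.2 B6 donors placed into CD45.1 B6 recipients, the B6 CD45.1 strain being named in the study's methods as the congenic B6.SJL-Ptprca Pepcb/BoyJ, after 60 minutes of cold storage at 4 °C and 45 minutes at 28 °C, and were collected after 2 hours or 3 days of reperfusion. According to the study, cells carrying the CD45.1 marker of the recipient were sorted before capture; how this applied to the naive lungs was not settled. With 1 library per condition, a difference between conditions cannot be told apart from a difference between libraries, and no test was possible. The intervals below cover counting error only.

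TNF superfamily ligands are mostly trimeric proteins of the cell surface that can be shed, and their receptors signal through adaptor proteins to NF-kB and MAP kinases or, where they carry a death domain, to caspases. In the immune system the family carries survival signals for B cells (BAFF and APRIL), costimulation of T and NK cells (OX40, 4-1BB, GITR) and the inflammatory response to TNF in myeloid and other cells. In the lung, TNF and its relatives are known mediators of acute inflammation.

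After the filters on cells, 2422, 10283 and 8324 cells remained in the naive, 2-hour and 3-day libraries, with 28538529, 10749100 and 70750470 unique molecular identifiers (UMIs, each 1 captured transcript) and a median of 7298.5, 878 and 5716.5 UMIs per cell. Cells were clustered without the TNF superfamily genes and named from fixed markers, which gave B cells (553, 1430 and 1869 cells in that order of libraries), T cells (576, 2516 and 1049), NK cells (516, 1008 and 328), neutrophils (389, 4043 and 2156), monocytes (141, 446 and 1221) and macrophages (107, 6 and 803). The 6 macrophages at 2 hours were too few to compare. Within a lineage, different clusters held the cells of the different libraries. Monocytes were of the nonclassical type in the naive library and, in 444 of 446 cells, at 2 hours, whereas at 3 days 771 of 1221 were of the classical type (63.1%). Macrophages were mainly alveolar in the naive library (102 of 107 cells) and mainly of a type marked by Arg1 at 3 days (637 of 803 cells), so the macrophage comparison sets 2 different types side by side. The libraries shared 8 (naive and 2 hours), 1 (naive and 3 days) and 23 (2 hours and 3 days) cell barcodes.

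The naive library was counted with another release of Cell Ranger than the transplant libraries, and genes with long introns stood higher in it. Over all genes tested in T cells, the median log2 ratio of 2 hours over naive went from 0.61 for genes without introns to −2.10 for genes with at least 100000 intronic bases, and that of 3 days over naive from 0.61 to −1.64. The use of intronic reads in either release was not stated. The study describes sorting recipient cells from the transplanted lungs, whereas the cells of naive lungs belong to the lung they were taken from. The time, the counting and the origin of the cells therefore cannot be told apart in any comparison with the naive library. The 2 transplant libraries, counted with the same release, are set side by side first.

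Most members with enough UMIs were highest in the same lineage before and after transplantation. Levels are given as UMIs of a gene per 1000000 UMIs of the lineage (CPM), with the exact 95% Poisson interval where one is printed, and are compared between lineages or libraries for the same gene, not between genes. Of the 32 members, 25 reached 50 UMIs in at least 1 lineage over the 3 libraries (8 ligands, 16 receptors and Tnfsf13os). Among the 23 members with at least 20 UMIs in every library, 17 were highest in the same lineage in all 3. Macrophages were not compared at 2 hours, so Tnfsf13 and Tnfrsf12a, highest in them in the other libraries, could not count among the 17. Some leads lay within counting error, as for Tnfrsf26 at 2 hours, where T cells stood above neutrophils by 0.14 on the log2 scale (−0.14 to 0.41). The highest lineage stood at least 2-fold above the next, with an interval of the ratio that left out equality, for 16 of 27 members in the naive library, 14 of 23 at 2 hours and 14 of 26 at 3 days. These counts between lineages have no share of all genes beside them and give no result about the members as a group.

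**Figure D1:**
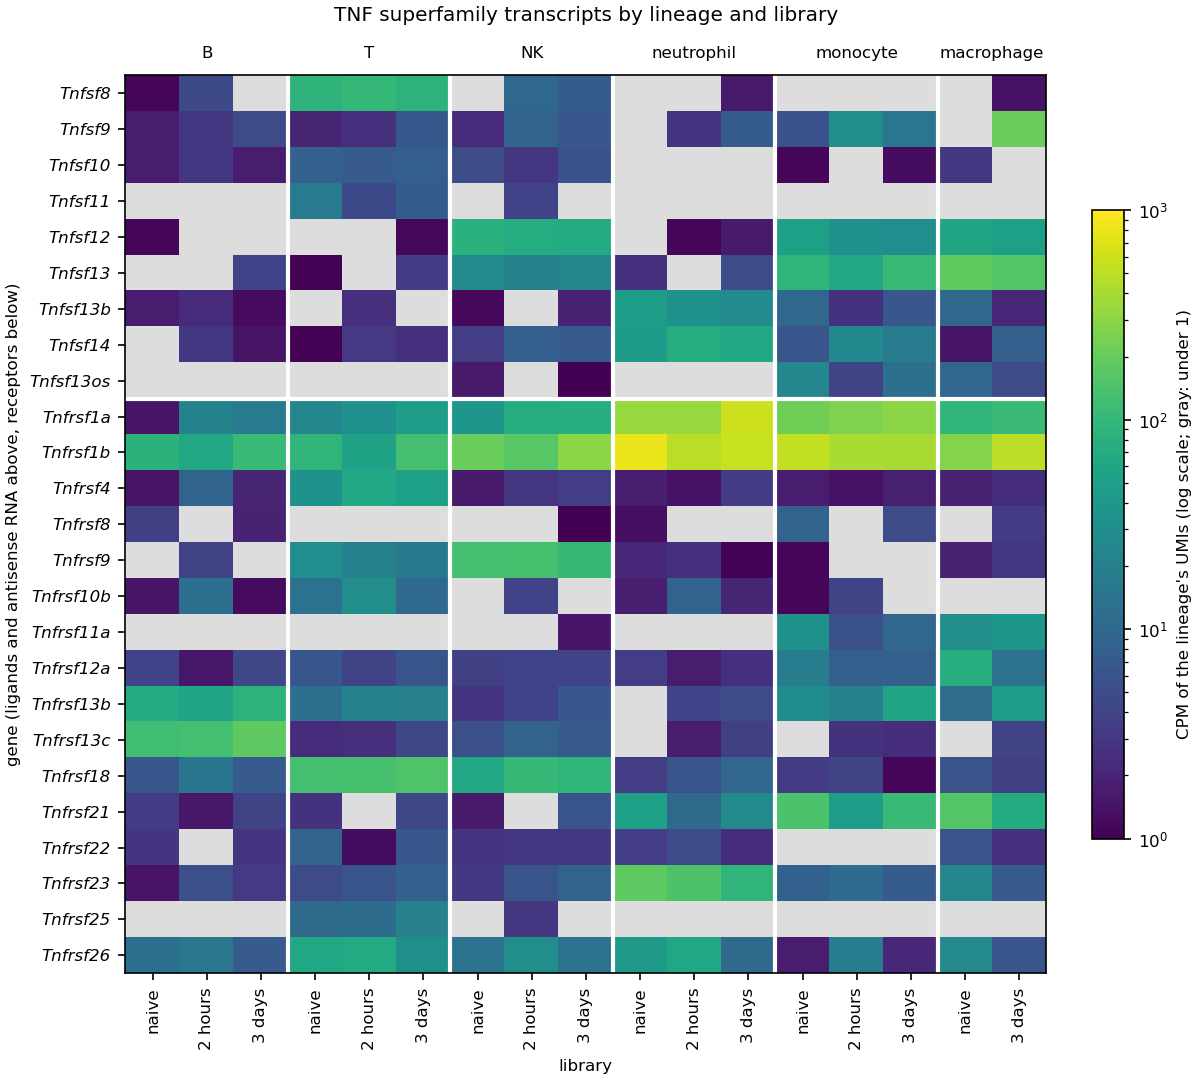
Levels of the 25 TNF superfamily members with at least 50 UMIs in a lineage, in CPM on a logarithmic color scale, by lineage and library (columns); gray marks levels under 1 CPM, and the 6 macrophages at 2 hours are left out. The Tnfrsf13c row is brightest in the B cell columns (120, 126 and 179 CPM) and the Tnfsf9 row in macrophages at 3 days (204 CPM).

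Of the receptors of the B cell survival ligands, Tnfrsf13c was read mostly in B cells and Tnfrsf13b in B and myeloid cells, and the ligands were highest in myeloid cells. Tnfrsf13c, which encodes the BAFF receptor needed for B cell survival, was at 120 CPM (interval 109 to 132) in naive B cells, 126 CPM (108 to 147) at 2 hours and 179 CPM (171 to 187) at 3 days. The 3-day value lay above both others, by less than 2-fold. In the lineage with the next highest level, NK cells, Tnfrsf13c was lower by 4.48, 3.82 and 4.67 on the log2 scale in the naive, 2-hour and 3-day libraries.

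Tnfrsf13b encodes TACI, a receptor that binds both BAFF and APRIL. In B cells it was at 70.7, 55.8 and 87.9 CPM in the naive, 2-hour and 3-day libraries. In monocytes it was at 29.0 CPM (21.6 to 38.1), 20.7 CPM (11.6 to 34.2) and 56.6 CPM (53.0 to 60.3), so that B cells stood above monocytes by 1.28 on the log2 scale (0.84 to 1.75) in the naive library and by 0.64 (0.50 to 0.77) at 3 days. In macrophages it was at 11.8 CPM in the naive library and 46.1 CPM at 3 days, where it was read in the Arg1 type at 40.6 CPM and in the C1q type at 60.2 CPM. At 3 days monocytes held 946 and B cells 928 of its UMIs, so TACI transcripts were found in myeloid cells as well as B cells. Tnfrsf17, the gene of the third receptor of this group, had 4, 5 and 5 UMIs in the 3 libraries.

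Tnfsf13b, the gene of BAFF, was highest in neutrophils in every library, at 47.8 CPM (39.2 to 57.7) before transplantation, 33.4 CPM after 2 hours and 28.3 CPM (25.2 to 31.8) after 3 days. Neutrophils stood above the next lineage by 2.21, 3.59 and 2.11 on the log2 scale. The 2-hour value rested on 2 UMIs in monocytes (interval 1.7 to 6.7), with macrophages left out. Tnfsf13, the gene of APRIL, had its highest level in macrophages, with 184 CPM in the naive library and 156 CPM at 3 days, and reached 92.1, 63.6 and 106 CPM in monocytes and 26.9, 21.8 and 23.0 CPM in NK cells. In neutrophils Tnfsf13 had 6, 1 and 50 UMIs. The 2 ligands of TACI were therefore highest in different myeloid cells, BAFF in neutrophils and APRIL in macrophages and monocytes. The split was not complete, since Tnfsf13b was also read in naive macrophages (10.3 CPM, 21 UMIs) and in monocytes at 3 days (6.58 CPM, 110 UMIs). At 3 days Tnfsf13 was at 188 CPM in the Arg1 macrophages, 75.0 CPM in the C1q macrophages, 114 CPM in classical monocytes and 77.9 CPM in nonclassical monocytes.

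**Figure D2:**
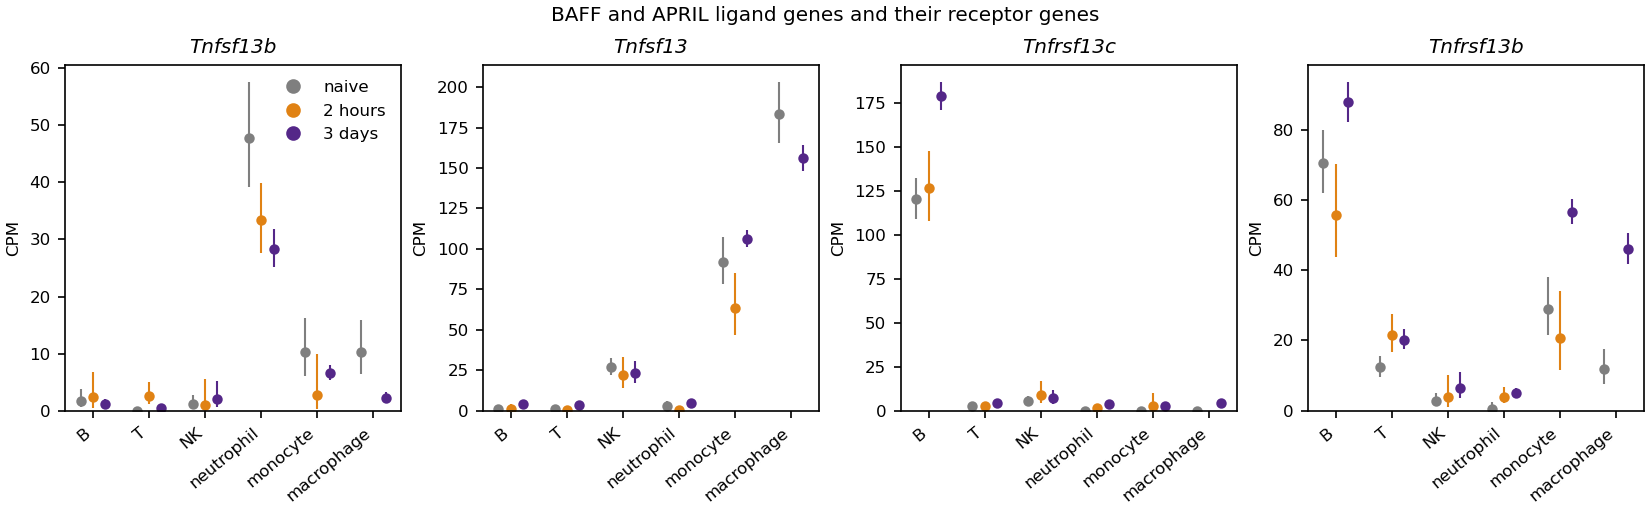
Levels in CPM (axis from 0) of the ligand genes Tnfsf13b and Tnfsf13 and the receptor genes Tnfrsf13c and Tnfrsf13b by lineage; points are libraries (gray naive, orange 2 hours, purple 3 days) and bars the exact 95% Poisson interval. Tnfrsf13c stands out in B cells (120, 126 and 179 CPM), Tnfsf13b in neutrophils (47.8, 33.4 and 28.3 CPM) and Tnfsf13 in macrophages (184 CPM naive, 156 CPM at 3 days).

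The share of cells with a UMI gave the same picture for Tnfrsf13c once every cell was thinned to 500 UMIs. It was 5.79% (exact binomial interval 3.99 to 8.07) of naive B cells, 5.46% (4.32 to 6.80) at 2 hours and 8.83% (7.58 to 10.2) at 3 days. In T cells the shares were 0.347%, 0% (0 of 2502 cells, with an upper bound of 0.147%) and 0.286%. Without thinning, the shares in B cells were 43.4%, 9.65% and 53.2%, lowest in the shallow 2-hour library. At 2 hours, 57 B cells and 14 T cells held fewer than 500 UMIs and were left out.

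The costimulatory receptors were read in T and NK cells. Tnfrsf4, which encodes OX40, was at 34.0 CPM (29.4 to 39.1), 61.1 CPM (52.7 to 70.3) and 50.2 CPM (45.8 to 55.0) in T cells (naive, 2 hours, 3 days), and T cells stood above the next lineage by 4.11, 2.72 and 3.84 on the log2 scale. Tnfrsf18, which encodes GITR, was at 131, 134 and 148 CPM in T cells and at 63.4, 102 and 90.7 CPM in NK cells. The 8 T cell markers in NK cells summed to 556.3, 1386.4 and 662.1 CPM, and their part in these NK cell values was not tested. Tnfrsf9, which encodes 4-1BB, was higher in NK cells (131, 134 and 102 CPM) than in T cells (29.6, 20.7 and 16.2 CPM), by 2.15, 2.70 and 2.66 on the log2 scale. None of these 3 receptor genes passed 2-fold between libraries in T or NK cells.

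T cells also held 2 ligand genes and a death-domain receptor of the family. Tnfsf8, the gene of the CD30 ligand, was at 88.2 CPM (80.7 to 96.1), 101 CPM (90.04 to 113) and 86.9 CPM (81.1 to 93.1) in T cells, and the intervals of the 3 libraries overlapped. The gene of its receptor, Tnfrsf8, had at most 81 UMIs in a lineage and library, in monocytes at 3 days (4.85 CPM). In naive monocytes Tnfrsf8 was at 9.10 CPM, on 16 UMIs. Tnfsf11, the gene of RANK ligand, was at 16.7 CPM in naive T cells, 4.77 CPM (15 UMIs) at 2 hours and 7.66 CPM at 3 days. At 3 days 51 of its 72 UMIs in T cells were in Cd4+ cells without a Foxp3 UMI and 3 in Cd8+ cells. In the naive library these classes held 31 and 4 of its 97 UMIs, and cells with a Foxp3 UMI held 1. The log2 ratio of 3 days over naive was −1.12 over all T cells. In Cd4+ cells without a Foxp3 UMI it was 0.34 (−0.33 to 1.03), so the lower level was not seen in that class. The part of T cells outside these classes was not tested. Tnfrsf25, which encodes DR3, was at 10.8, 11.4 and 20.2 CPM in T cells, and the 3-day interval (17.4 to 23.3) lay above those of the naive library (8.32 to 13.8) and of 2 hours (8.02 to 15.8).

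Within T cells, the levels of the OX40 and 4-1BB genes were highest in the few cells with a UMI of Foxp3, the transcription factor of regulatory T cells. There were 18, 41 and 47 such cells in the naive, 2-hour and 3-day libraries. The split by Foxp3, Cd4 and Cd8 UMIs left most of the shallow 2-hour T cells in no class: beside the 41, only 135 of the 2516 were Cd4+ and 417 Cd8+, and these held 10 and 2 of the 192 Tnfrsf4 UMIs. The cells with a Foxp3 UMI held 84 of the 198 Tnfrsf4 UMIs of all T cells in the naive library, 48 of 192 at 2 hours and 160 of 472 at 3 days. They also held 57 of 172, 24 of 65 and 43 of 152 Tnfrsf9 UMIs. These genes, which were not used to pick the cells, lie with Tnfrsf18 on chromosome 4 (mm10): Tnfrsf9 at chr4:150914562-150946102, Tnfrsf4 at chr4:156013843-156016612 and Tnfrsf18 at chr4:156026164-156028895, all on the plus strand. The promoters of these 3 costimulatory receptor genes are printed, though they were not the only members high in these cells. RefSeq (GRCm38.p6, plus strand, from 250 bases before to 50 after a start) gives chr4:156013445-156013744 for Tnfrsf4, chr4:156026072-156026371 for Tnfrsf18, and chr4:150919905-150920204 and chr4:150927749-150928048 for 2 starts of Tnfrsf9, in lower case with matches to an NF-kB type motif (GGG, any 5 bases, then CC) or an AP-1 type motif (TGANTCA) on either strand in capitals.
Tnfrsf4: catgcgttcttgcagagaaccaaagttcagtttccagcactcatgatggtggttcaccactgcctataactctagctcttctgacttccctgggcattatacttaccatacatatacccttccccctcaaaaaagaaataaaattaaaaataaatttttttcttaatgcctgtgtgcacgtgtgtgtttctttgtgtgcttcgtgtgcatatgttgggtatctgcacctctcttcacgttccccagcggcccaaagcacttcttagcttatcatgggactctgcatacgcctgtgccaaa
Tnfrsf18: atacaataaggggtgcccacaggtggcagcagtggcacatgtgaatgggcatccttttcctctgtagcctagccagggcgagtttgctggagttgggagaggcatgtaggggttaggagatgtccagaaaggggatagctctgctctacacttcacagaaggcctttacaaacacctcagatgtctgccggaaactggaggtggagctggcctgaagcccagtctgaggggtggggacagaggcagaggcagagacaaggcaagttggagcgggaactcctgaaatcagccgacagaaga
Tnfrsf9, first start: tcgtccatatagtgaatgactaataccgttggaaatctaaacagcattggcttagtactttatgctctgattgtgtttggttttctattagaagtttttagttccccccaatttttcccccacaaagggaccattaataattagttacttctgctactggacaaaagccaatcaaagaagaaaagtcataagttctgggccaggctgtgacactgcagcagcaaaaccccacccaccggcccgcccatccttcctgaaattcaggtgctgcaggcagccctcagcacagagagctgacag
Tnfrsf9, second start: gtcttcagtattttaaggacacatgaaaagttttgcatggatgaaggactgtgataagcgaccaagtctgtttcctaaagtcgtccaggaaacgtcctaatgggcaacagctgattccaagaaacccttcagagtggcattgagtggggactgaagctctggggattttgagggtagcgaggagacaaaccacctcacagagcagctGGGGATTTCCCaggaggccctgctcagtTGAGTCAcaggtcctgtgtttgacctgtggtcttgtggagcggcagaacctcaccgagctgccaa
The second start of Tnfrsf9 held 2 overlapping NF-kB type matches and 1 AP-1 type match, and the other printed windows held none. Tnfrsf1b, also on chromosome 4, stood further above the Cd4+ cells without a Foxp3 UMI than Tnfrsf18 did, as given below. Its promoter is not printed and held 3 NF-kB type matches. Over all 32851 promoters of that length, 50.8% held the NF-kB type motif and 7.81% the AP-1 type motif, against 15 and 6 of the 28 promoters found for 24 of the 32 members. A match is a run of letters and no sign of binding.

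In the Foxp3+ T cells Tnfrsf4 was at 482 CPM (384 to 597) in the naive library, 773 CPM (570 to 1025) at 2 hours and 472 CPM (402 to 551) at 3 days. Cd4+ T cells without a Foxp3 UMI are called the other Cd4+ cells here and below, though a Foxp3+ cell needed no Cd4 UMI. In them Tnfrsf4 was at 44.4, 59.4 and 112 CPM, and in Cd8+ T cells at 2.25, 3.21 and 4.49 CPM. The Foxp3+ cells thus stood above the other Cd4+ cells by 3.44 on the log2 scale (2.98 to 3.90), 3.70 (2.70 to 4.85) and 2.08 (1.78 to 2.37) in the 3 libraries. The smaller gap at 3 days came with a higher level in the other Cd4+ cells (99 to 126 CPM) than in the naive library (35.1 to 55.3 CPM). At 3 days the other Cd4+ cells held 259 Tnfrsf4 UMIs, more than the 160 of the Foxp3+ cells. Cells whose Foxp3 was not captured may be among them, and their part was not tested.

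Tnfrsf9 was at 327, 386 and 127 CPM in Foxp3+ T cells and 12.9, 29.7 and 15.6 CPM in the other Cd4+ T cells, a log2 difference of 4.66 (3.94 to 5.43), 3.70 (2.28 to 5.45) and 3.03 (2.35 to 3.71). Its level in Foxp3+ cells at 3 days (91.8 to 171 CPM) lay below those of the naive library and of 2 hours (each from 248 CPM). Tnfrsf18 differed less, by 1.33, 1.37 and 0.88 on the log2 scale. Tnfrsf1b, the gene of the second TNF receptor, was at 298, 306 and 330 CPM in Foxp3+ cells and stood above the other Cd4+ cells by 2.22, 3.10 and 1.68. Tnfsf8 did not share the pattern, with log2 differences of 1.41 (0.90 to 1.90), −1.15 (−3.55 to 0.63) and −0.21 (−0.72 to 0.26).

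**Figure D3:**
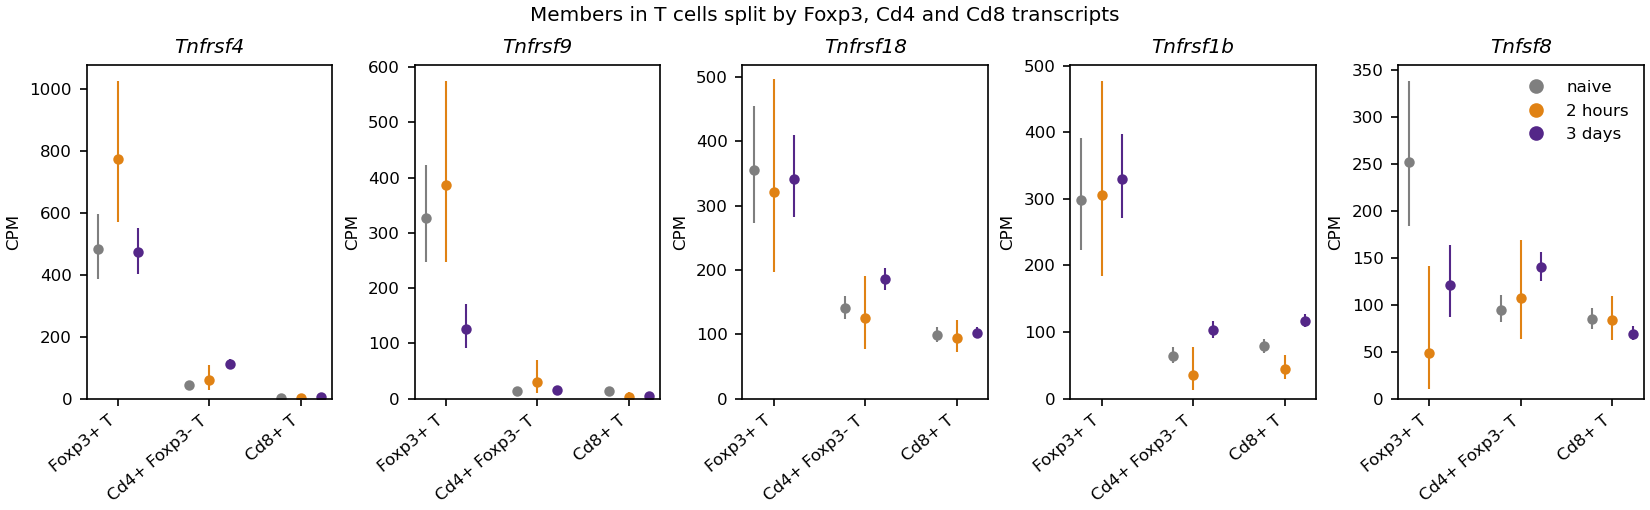
Levels in CPM (axis from 0) of 4 receptor genes and the ligand gene Tnfsf8 in T cells split by Foxp3, Cd4 and Cd8 UMIs; points are libraries (gray naive, orange 2 hours, purple 3 days) and bars the exact 95% Poisson interval. Tnfrsf4 in Foxp3+ cells (482, 773 and 472 CPM) lies far above the other Cd4+ cells (44.4, 59.4 and 112 CPM) in every library.

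The receptors for TNF itself were the members with the most UMIs and were read in every lineage. Tnfrsf1a, which encodes the death-domain receptor TNFR1, was at 342 CPM (319 to 367) in naive neutrophils, 342 CPM (323 to 362) at 2 hours and 589 CPM (574 to 604) at 3 days. In monocytes it was at 226, 260 and 298 CPM, in NK cells at 37.9, 71.5 and 73.6 CPM and in T cells at 24.2, 32.5 and 47.4 CPM. In macrophages it was at 91.1 CPM in the naive library and 110 CPM at 3 days. In these 5 lineages the 3-day level was the highest of the libraries compared, with an interval that overlapped that of 2 hours in NK cells and monocytes and that of the naive library in macrophages. The 8 neutrophil markers summed to 368.2, 1929.2 and 4158.9 CPM in NK cells and 390.5, 1657.3 and 1259.6 CPM in T cells. The 10 monocyte markers summed to 631.7, 497.2 and 1052.2 CPM in NK cells and 343.9, 151.7 and 519.9 CPM in T cells. The part of such RNA in the NK and T cell values was not tested.

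In B cells Tnfrsf1a had 5, 28 and 177 UMIs (1.43, 21.7 and 16.8 CPM), and was higher at 2 hours than in naive B cells by 3.92 on the log2 scale (2.53 to 5.65). The 8 neutrophil marker genes moved in the same order in B cells, with 223.4, 2228.5 and 1306.9 CPM summed, 8, 7 and 8 of them detected, and their part in the Tnfrsf1a values was not tested.

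Tnfrsf1b, which encodes TNFR2, was at 821 CPM (784 to 859), 490 CPM (467 to 514) and 560 CPM (546 to 574) in neutrophils, highest in the naive library. In monocytes it was at 524, 420 and 402 CPM, in NK cells at 207, 168 and 297 CPM, and in B cells at 84.1, 63.6 and 106 CPM. Macrophages had 279 CPM in the naive library and 505 CPM at 3 days. In T cells it was at 92.6 CPM (85.0 to 101), 53.8 CPM (46.0 to 62.5) and 129 CPM (122 to 136), and was higher at 3 days than at 2 hours by 1.26 on the log2 scale, with an interval from 1.03. In T cells the 8 neutrophil markers summed to 1657.3 CPM at 2 hours and 1259.6 CPM at 3 days, whereas the 10 monocyte markers went from 151.7 to 519.9 CPM and the 21 macrophage markers from 36.9 to 367.7 CPM, and their part in the Tnfrsf1b value was not tested. After thinning to 500 UMIs, 34.5% (29.7 to 39.4), 20.7% (19.4 to 21.99) and 25.2% (23.4 to 27.1) of neutrophils held a Tnfrsf1b UMI, with 324 cells at 2 hours left out. Without thinning the shares were 91.8%, 31.4% and 87.3%.

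Tnf, the ligand of both receptors, which carries another kind of symbol, was at 83.6, 76.4 and 55.5 CPM in neutrophils and 75.6, 69.2 and 35.8 CPM in monocytes. An unnamed cluster with Tnf first among its top genes, of 1 cell at 2 hours and 253 at 3 days, belonged to no lineage compared here. At 3 days nonclassical monocytes had 108 CPM of Tnf and classical monocytes 16.1 CPM, while Tnfrsf1b was at 682 CPM in the first and 325 CPM in the second. Over all monocytes Tnf was lower at 3 days, where the mix of monocyte types differed, and the part of this mix was not tested. Monocytes were all named nonclassical in the naive library and nearly all at 2 hours. The top genes of the main naive monocyte cluster also held Vcan and F13a1, which are markers of the classical type. Within the nonclassical type Tnf was higher at 3 days (108 CPM) than in the naive library (75.6 CPM). In macrophages Tnf was at 472 CPM in the naive library, where the cells were alveolar, and 202 CPM at 3 days.

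The ligand gene Tnfsf9, which encodes the 4-1BB ligand, showed the widest difference between libraries of any member. In macrophages no UMI was counted in the 107 naive cells, whereas 1903 were counted at 3 days (204 CPM, 195 to 213). That is 137.8-fold the level that 3 counts in the naive macrophages would give, a set floor and not a lower limit of the ratio. These macrophages held 1903 of the 2709 Tnfsf9 UMIs in the 3-day library. Of them 1762 were in the Arg1 type (263 CPM), while the C1q type stood at 53.4 CPM. The naive macrophages were mainly alveolar, so the cell type, the origin of the cells and the time cannot be told apart. The receptor gene Tnfrsf9 was in NK cells and Foxp3+ T cells, as given above, and ligand and receptor were thus read in different lineages of the same library.

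In monocytes Tnfsf9 was at 5.69 CPM (10 UMIs), 30.4 CPM (22 UMIs) and 15.0 CPM (251 UMIs), higher at 2 hours than in the naive library by 2.42 on the log2 scale (1.28 to 3.66) and lower at 3 days than at 2 hours by 1.02 (0.32 to 1.65). Among nonclassical monocytes alone it was at 5.69, 30.7 and 8.40 CPM, so the 2-hour value was the highest within 1 type as well. A small cluster named plasmacytoid dendritic cells, which also held conventional dendritic cell genes, had 181 CPM at 2 hours and 82.6 CPM at 3 days. Tnfsf9 in T cells was at 2.54 CPM at 2 hours and 6.70 at 3 days, that in neutrophils at 2.83 and 7.66, while B cells had 5.02 at 3 days. The 21 macrophage markers summed to 367.7 CPM in T cells at 3 days and 36.9 CPM at 2 hours, and the part of macrophage RNA in these low values was not tested.

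**Figure D4:**
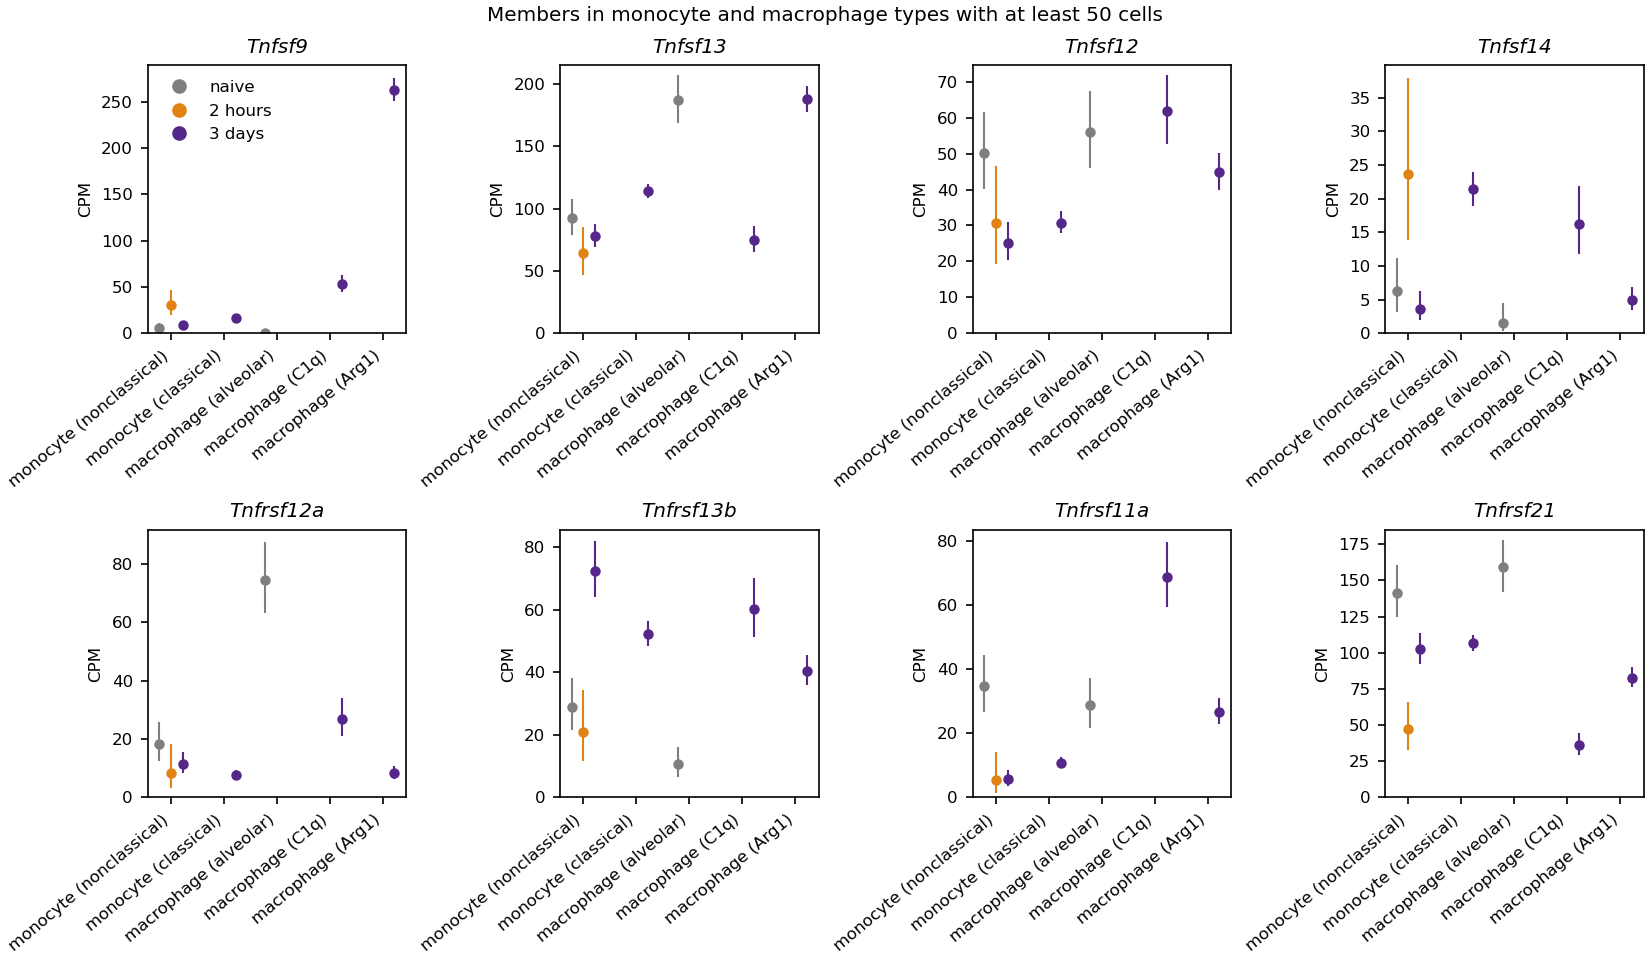
Levels in CPM (axis from 0) of members in the monocyte and macrophage types; points are libraries (gray naive, orange 2 hours, purple 3 days) and bars the exact 95% Poisson interval. Tnfsf9 at 3 days is highest in Arg1 macrophages (263 CPM), with 53.4 CPM in C1q macrophages and 16.8 CPM in classical monocytes.

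Other receptors of myeloid cells differed by macrophage or monocyte type. Tnfrsf11a, which encodes RANK, was at 68.9 CPM in C1q and 26.7 CPM in Arg1 macrophages at 3 days and at 28.7 CPM in naive alveolar macrophages. In monocytes it was at 34.7 CPM in the naive library, 5.53 CPM (4 UMIs) at 2 hours and 9.69 CPM at 3 days, and the same order held in nonclassical monocytes alone for the naive library (34.7 CPM) against the transplant libraries (5.58 and 5.60 CPM). Tnfrsf11a spans 61279 intronic bases. With the ratios centred on genes of the same intronic length, 2 hours over naive was −1.89 rather than −2.65. Tnfrsf12a, the receptor gene for TWEAK with 92 intronic bases, was at 74.9 CPM in naive macrophages and 13.6 CPM at 3 days, a log2 ratio of −2.46. With cells thinned to 500 UMIs the ratio was −0.59, under 2-fold. That thinned value rested on 1 naive macrophage with a UMI and 5 at 3 days, too few to read a size from. The ligand gene Tnfsf12 was at 58.6 and 49.5 CPM in macrophages of these 2 libraries and was highest in NK cells, with 82.2, 72.5 and 67.6 CPM.

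Tnfrsf21, which encodes the death-domain receptor DR6, was at 142 CPM (125 to 160), 47.0 CPM (32.6 to 65.7) and 106 CPM (101 to 111) in monocytes and at 52.6, 10.8 and 27.5 CPM in neutrophils. It was higher at 3 days than at 2 hours by 1.17 on the log2 scale (0.68 to 1.71) in monocytes and by 1.35 (0.86 to 1.88) in neutrophils. Nonclassical monocytes alone gave 1.11 (0.60 to 1.67). Both lineages were lowest at 2 hours. Against the naive library the gene, with 68526 intronic bases, was lower at 2 hours by 1.59 in monocytes and 2.29 in neutrophils, and by 0.83 and 1.73 after centring on genes of like intronic length. With cells thinned to 500 UMIs it was lower by 0.65 and 0.86, under 2-fold in both lineages. These thinned values rested on 4 naive cells with a UMI in each lineage, and on 8 monocytes and 19 neutrophils at 2 hours.

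Tnfsf14, the gene of LIGHT, was highest in neutrophils, at 43.3 CPM (35.2 to 52.8), 72.1 CPM (63.5 to 81.5) and 61.9 CPM (57.2 to 66.9). Its receptor genes stood apart from each other: Tnfrsf14 stayed under 50 UMIs in every lineage, and Ltbr, the lymphotoxin beta receptor gene, was at 47.8, 78.8 and 64.8 CPM in monocytes. In monocytes Tnfsf14 was at 6.26, 24.9 and 17.6 CPM, of which the 3-day value was in classical cells (21.4 CPM).

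The TRAIL group joined a low ligand to receptors in neutrophils and T cells. Tnfsf10, the gene of TRAIL, was at 8.42, 7.32 and 8.09 CPM in T cells, with overlapping intervals, and was higher in the few endothelial cells, at 171 CPM in the naive library and 132 CPM at 3 days. Tnfrsf10b, which encodes its death-domain receptor, was at 13.4 CPM (10.6 to 16.7), 30.5 CPM (24.7 to 37.3) and 10.6 CPM (8.66 to 12.9) in T cells. The 2-hour level lay above both others, by 1.19 on the log2 scale over naive (0.74 to 1.64), and 3 days was lower than 2 hours by 1.52 (1.10 to 1.94). In neutrophils 2 hours was also the highest, with 4, 33 and 22 UMIs (1.77, 9.33 and 2.11 CPM), and the naive library the lowest.

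Tnfrsf22, Tnfrsf23 and Tnfrsf26 are neighbouring genes of like sequence on chromosome 7, Tnfrsf22 and Tnfrsf23 encoding decoy receptors for TRAIL, and reads could be split between them. Tnfrsf23 was read in neutrophils, at 180 CPM (163 to 198), 146 CPM (134 to 160) and 93.0 CPM (87.3 to 99.1), from highest in the naive library to lowest at 3 days. Tnfrsf26 was the member that differed in the most lineages between the transplant libraries. Its level at 2 hours and 3 days was 68.1 and 31.1 CPM in T cells, 61.9 and 10.9 CPM in neutrophils, 15.5 and 7.199 CPM in B cells, 30.8 and 13.02 CPM in NK cells, and 19.4 and 2.15 CPM in monocytes. It was thus lower at 3 days in all 5 lineages compared, by 1.13 on the log2 scale (0.87 to 1.39) in T cells, 2.50 (2.17 to 2.84) in neutrophils, 1.11 (0.32 to 1.83) in B cells, 1.24 (0.44 to 2.05) in NK cells and 3.17 (2.16 to 4.09) in monocytes. With called doublets removed the log2 ratio was −0.52 in B cells and −0.97 in NK cells, under 2-fold, and −1.18, −2.51 and −3.07 in T cells, neutrophils and monocytes. In NK cells the difference rested on 31 and 26 UMIs and turned to 0.11 when cells were named one by one, where B cells gave −0.32. The 8 neutrophil markers were also lower at 3 days than at 2 hours in monocytes (5879.0 and 1906.8 CPM), B cells (2228.5 and 1306.9 CPM) and T cells (1657.3 and 1259.6 CPM), though higher in NK cells (1929.2 and 4158.9 CPM), where the 8 T cell markers were lower (1386.4 and 662.1 CPM). The part of RNA of other lineages in the Tnfrsf26 values was not tested.

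Over the 5 lineages, 11 of 89 pairs of member and lineage were at least 2-fold higher at 3 days than at 2 hours and 13 at least 2-fold lower. A difference is counted here where both libraries together had at least 20 UMIs, the ratio was at least 2-fold and its exact interval left out equality. In T cells 5 of 21 members were higher at 3 days, beside 14.5% of all genes, and 2 were lower, beside 7.07%. In neutrophils 3 of 20 members were higher (14.4% of all genes) and 4 lower (7.67%), and in monocytes 3 of 20 were higher (10.0%) and 2 lower (6.71%). In B cells none of 16 was higher (12.4%) and 4 were lower (6.74%), and in NK cells none of 12 was higher (12.7%) and 1 was lower (6.19%). The counts are small and, beside the shares of all genes, give no result about the members as a group. The median log2 ratio of 3 days over 2 hours for all genes was 0.29 in B, 0.25 in T, 0.25 in NK cells, 0.24 in neutrophils and 0.17 in monocytes, and that of the members 0.14, 0.46, −0.18, 0.43 and −0.01.

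**Figure D5:**
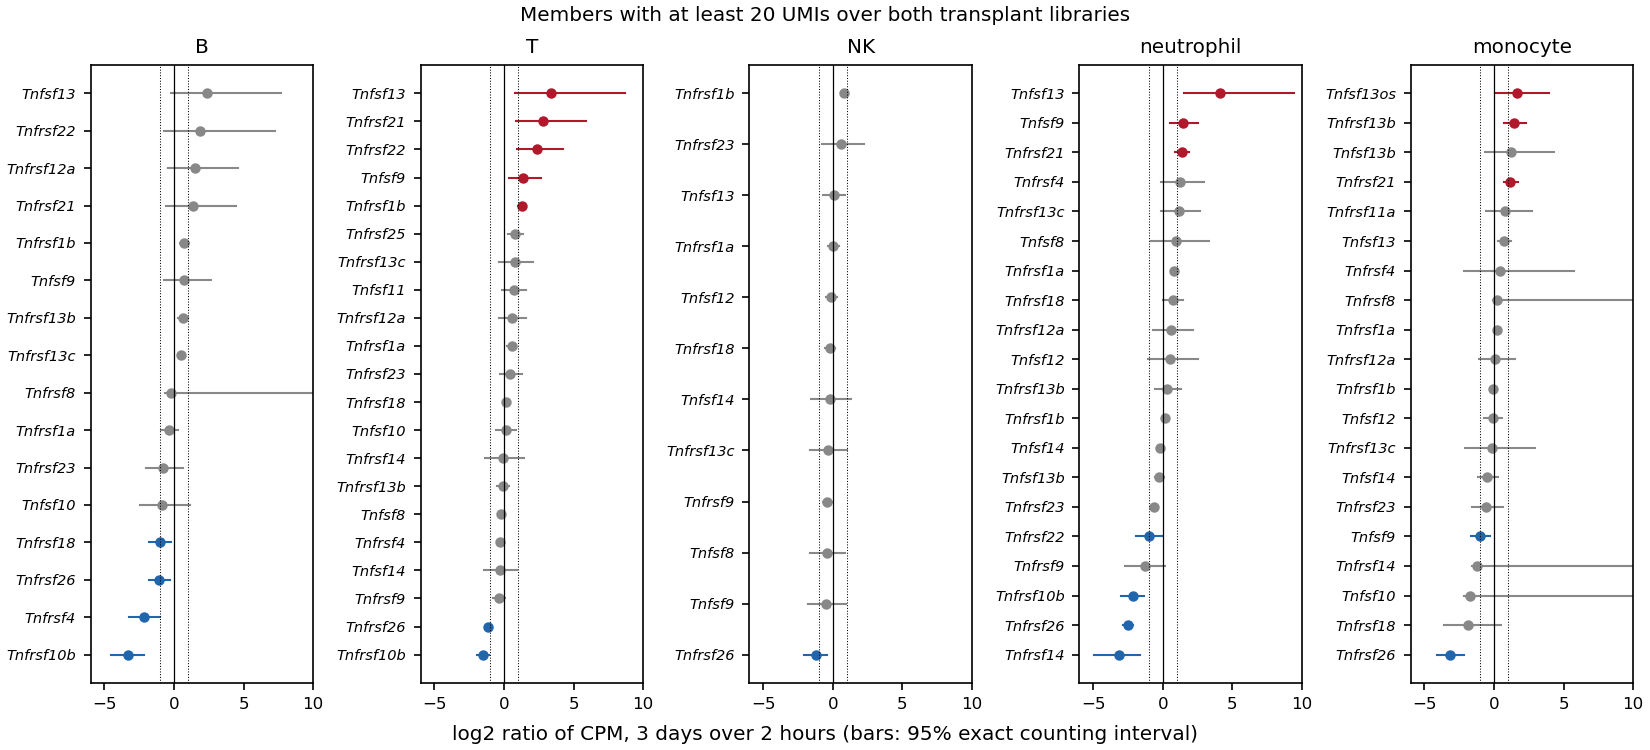
Log2 ratio of 3 days over 2 hours of reperfusion for members with at least 20 UMIs over both libraries; bars are exact 95% intervals and run to the edge where unbounded, a member with 0 UMIs at 2 hours is set against 3 counts, red and blue mark at least 2-fold higher or lower with an interval that leaves out 0, gray the rest, and dotted lines 2-fold. Tnfrsf26 is lower in T cells (by 1.13) and neutrophils (by 2.50), and Tnfrsf1b is higher in T cells (1.26).

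The members that passed this rule at 3 days over 2 hours with at least 50 UMIs, beyond those given above, were few and mostly low. Tnfrsf22 was higher in T cells, with 4 and 61 UMIs, and lower in neutrophils, with 17 and 25 UMIs. Tnfrsf21 was higher in T cells, with 2 and 41 UMIs, and Tnfsf13 in neutrophils, with 1 and 50 UMIs. Both genes were high in monocytes and macrophages, whose markers in T cells were higher at 3 days, as given for Tnfrsf1b. In neutrophils the 21 macrophage markers summed to 328.7 and 661.7 CPM at these times and the 10 monocyte markers to 127.3 and 173.4 CPM, and the part of these cells in both values was not tested. In monocytes Tnfrsf13b was higher by 1.45 on the log2 scale (0.72 to 2.29), and by 1.80 (1.05 to 2.65) in nonclassical cells alone, and Tnfsf13os by 1.63 (0.07 to 3.92) on 3 and 215 UMIs. Tnfsf13os lies opposite Tnfsf13 and Tnfsf12 on chromosome 11, and since the use of strand in the counting was not stated, its reads may not be its own. In B cells Tnfrsf18 was lower at 3 days by 1.03 (0.22 to 1.77), and the 8 T cell markers in those B cells summed to 96.2 CPM at 2 hours and 19.4 CPM at 3 days. Their part in the Tnfrsf18 value was not tested, and naming cells one by one gave −0.28.

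Against the naive library, 3 of 7 members differed at 2 hours in B cells, beside 38.4% of all genes, 3 of 17 in T cells (37.1%), 1 of 11 in NK cells (32.9%), 2 of 10 in neutrophils (32.9%) and 5 of 13 in monocytes (33.5%). At 3 days 4 of 16 differed in B cells (26.2%), 4 of 21 in T cells (25.2%), 2 of 14 in NK cells (24.0%), 5 of 16 in neutrophils (24.3%), 4 of 20 in monocytes (19.6%) and 11 of 20 in macrophages (36.7%). These counts join both directions. In macrophages 5 were higher at 3 days and 6 lower, the lower ones including Tnfrsf21 (156 and 69.7 CPM), Tnfrsf23 (24.6 and 7.17 CPM), Tnfrsf26 (26.1 and 6.10 CPM) and Tnfrsf12a, and the higher ones Tnfsf9, Tnfrsf13b and Tnfsf14 (1.48 and 8.13 CPM). Tnfsf11 and Tnfrsf22 were lower in T cells at 2 hours than in the naive library, by 1.80 and 2.84 on the log2 scale, on 15 and 4 UMIs. In Cd4+ T cells without a Foxp3 UMI the Tnfsf11 ratio was −0.55 (−3.66 to 1.42), on 2 UMIs at 2 hours. At 3 days Tnfrsf26 was lower than in the naive library by 1.03 in T cells and by 1.90 in neutrophils. Tnfrsf12a in monocytes was at 18.2, 8.30 and 8.55 CPM in the naive, 2-hour and 3-day libraries, on 6 UMIs at 2 hours. Neutrophils had 3.54, 5.94 and 9.67 CPM of Tnfrsf18 and 1, 14 and 52 UMIs of Tnfrsf13b. The Tnfrsf18 ratio of 3 days to naive turned to −0.15 with cells thinned to 500 UMIs. That value rested on 5 cells with a UMI at 3 days and 1 in the naive library, too few to read a direction from.

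The superfamily genes under other symbols (Tnf, Lta, Ltb, Cd40lg, Fasl, Cd70, Eda, Cd40, Fas, Cd27, Ltbr, Ngfr, Edar, Eda2r and Relt) included some of the widest differences. At 3 days over 2 hours, 1 of 9 tested was higher (beside 12.4% of all genes) and 2 lower (6.74%) in B cells, and 3 of 9 were higher (14.5%) and 1 lower (7.07%) in T cells. None of 5 passed in NK cells (12.7% higher, 6.19% lower), 2 of 8 were higher (14.4%) and 1 lower (7.67%) in neutrophils, and in monocytes none of 7 was higher (10.0%) and 3 were lower (6.71%). Fas, the death receptor, was at 31.4, 280 and 38.1 CPM in T cells and at 171, 269 and 116 CPM in neutrophils, highest at 2 hours in both. Cd27, a costimulatory receptor, was at 8.87, 85.3 and 10.7 CPM in B cells, again highest at 2 hours, but lowest at 2 hours in T cells (180, 102 and 222 CPM). The 8 T cell markers in B cells were also highest at 2 hours (25.8, 96.2 and 19.4 CPM), and their part in the Cd27 values was not tested.

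Ltb, which encodes lymphotoxin beta, was at 344, 247 and 398 CPM in B cells, 240, 133 and 279 CPM in T cells and 145, 61.9 and 215 CPM in neutrophils, lowest at 2 hours in each. Fasl was read in NK cells at 226, 182 and 296 CPM. Cd40, the receptor for T cell help, was at 57.2, 23.3 and 37.9 CPM in B cells and had 2 UMIs (0.985 CPM) in naive macrophages and 369 UMIs (39.5 CPM) at 3 days. Cd40lg was at 22.5, 12.1 and 8.19 CPM in T cells.

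Of 19 adaptor and kinase genes downstream of the receptors, 5 were higher (beside 12.4% of all genes) and none lower (6.74%) at 3 days than at 2 hours in B cells, 3 (14.5%) and none (7.07%) in T cells, and none (12.7%) and 1 (6.19%) in NK cells. Of 18 tested, 1 was higher (14.4%) and 2 lower (7.67%) in neutrophils, and 2 were higher (10.0%) and 1 lower (6.71%) in monocytes. Traf1, an adaptor induced by NF-kB, had 46.1, 34.1 and 98.0 CPM in B and 93.2, 72.2 and 166 CPM in T cells. Ikbkb, a kinase upstream of NF-kB, was at 146, 98.5 and 238 CPM in B cells. Traf3, an inhibitor of the alternative NF-kB pathway, was at 269, 17.1 and 41.7 CPM in B cells and 434, 20.4 and 34.6 CPM in neutrophils, far higher in the naive library in both. These values were not centred on genes of like intronic length, and time, counting and the origin of the cells cannot be told apart in them.

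Members below 50 UMIs in every lineage were the ligand genes Tnfsf4, Tnfsf15 and Tnfsf18 and the receptor genes Tnfrsf11b, Tnfrsf14, Tnfrsf17 and Tnfrsf19. Over all kept cells Tnfsf4, the OX40 ligand gene, had 23, 3 and 21 UMIs, Tnfsf15, the ligand gene of DR3, 1, 2 and 17, and Tnfsf18, the GITR ligand gene, 2, 1 and 7. The receptors OX40, DR3 and GITR were thus read in T cells of these libraries while their ligands were close to undetected in the sorted cells. Tnfrsf14 had 26, 27 and 80 UMIs, Tnfrsf19 21, 0 and 15, and Tnfrsf11b 2, 1 and 4.

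The transplant libraries also held counts of 277 antibodies that name human proteins, 13 of them for members of the superfamily. These 13 had 726 of 877259 antibody counts at 2 hours and 546 of 1054907 at 3 days, most of them from the antibody to TNFRSF17 (BCMA), with 587 and 398 counts. In B cells 172 of 1430 cells held a TNFRSF17 count at 2 hours (12.03%, exact binomial interval 10.4 to 13.8) and 302 of 1869 at 3 days (16.2%, 14.5 to 17.9). In T cells 4 of 2516 (0.159%, 0.0433 to 0.407) and 7 of 1049 (0.667%, 0.269 to 1.37) did. The counts were 0.133 and 0.182 per B cell, within the range of the 9 isotype controls in B cells, 0.0147 to 0.629 at 2 hours and 0.0112 to 0.346 at 3 days. The antibody to TNFRSF13C, whose transcript was high in B cells, had 12 and 16 counts in B cells and 33 and 11 in T cells.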

How the data were processed

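The deposited files were raw UMI counts per gene and cell (Cell Ranger, mm10, with Seurat 4 in the submitters' processing notes; the file headers name Cell Ranger 7.1.0 for the naive and 6.0.0 for the transplant libraries). The kit is given differently in the labels and the methods. The authors' cell names were not used here. Cells were kept with more than 200 and fewer than 6000 genes, less than 25000 UMIs and a mitochondrial share below 10%, and were clustered (R 4.3.3, Seurat 5.3.0, SCTransform, 30 components, resolution 0.8) without the 17 superfamily genes among the 3000 variable features, which gave 29 clusters. Of these, 4 (7, 659 and 500 cells) stayed unnamed. Scrublet (scanpy 1.11.5) called 40, 403 and 277 doublets, which stayed in. UMIs were summed per library and lineage, and the procedure was tested on simulated data. No p-value was computed, since each condition had 1 library. A ratio against 0 used 3 counts. Member values are given from 50 UMIs in a lineage over the 3 libraries, and other named genes come from the lists of superfamily genes, adaptors and markers. The members and lists were chosen with earlier results of these data known. Antibody counts were used for the transplant libraries. Alternatives changed the clustering, cell calls, scale, depth, filters and threshold.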

Additional observations from a re-analysis of the deposited data

Results flagged for a closer look

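The antibody counts lie outside the transcript measurement and drew attention because the antibody to human TNFRSF17 (BCMA) had 587 counts at 2 hours, above the median of the 9 isotype controls (232 counts). At 3 days it had 398 counts, below the isotype median of 759. Of the 587 counts, 328 were in 1 cell of an unnamed cluster, and 259 remained without that cell. In B cells it had 190 counts at 2 hours and 340 at 3 days, against 4 and 8 in T cells. The transcript Tnfrsf17 had 4, 5 and 5 UMIs in the naive, 2-hour and 3-day libraries. The part of antibody binding to mouse BCMA in these counts was not tested.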

How the results depend on the processing

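The pairs of member and lineage past 2-fold depended on the settings, some of which left fewer lineages to compare. At 3 days over 2 hours, 11 of 89 pairs were higher and 13 lower. The 11 became 7 at a clustering resolution of 1.2, 5 without cells holding markers of another lineage, 5 with cells thinned to 500 UMIs, 25 with means over cells of counts per 10000 and 18 at 1.5-fold. The 13 became 8 without called doublets, 6 at a resolution of 0.4, 7 with the superfamily genes kept in the clustering, 5 without cells holding other markers, 4 thinned and 20 with no minimum of UMIs. At 2 hours over naive, 14 of 58 pairs became 6 at a resolution of 0.4, 5 without cells holding other markers, 4 thinned, 7 from 50 UMIs, 28 with no minimum and 22 at 1.5-fold. At a resolution of 0.4, 1 B cell and 3 monocytes were left at 2 hours, so neither lineage was compared with 2 hours. They had held 3 and 5 of the 14 pairs. At 3 days over naive, 30 of 107 became 6 without cells holding other markers, 7 thinned and 47 at 1.5-fold. Leaving out cells with other markers left 10 NK cells and 18 macrophages at 3 days. In the naive library it left 38 monocytes and 26 macrophages. These lay under the minimum of 50 cells, so their pairs were no longer compared and part of each fall came from lost lineages. Members at least 2-fold above the next lineage went from 16 to 6 in the naive library and from 14 to 8 at 3 days when thinned. The other 63 of 85 counts stayed within 1.5 times.

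Of 1693 recomputed log2 ratios, 1464 stayed within the counting interval, 225 moved outside it and 4 turned: Tnfrsf26 in NK cells named one by one to 0.11 (3 days over 2 hours) and −0.10 (2 hours over naive), Tnfrsf18 in neutrophils at 3 days over naive to −0.15 when thinned, and Tnfsf14 in monocytes at 3 days over naive to −0.78 in nonclassical cells alone, an alternative chosen after seeing the data. The other causes were not tested. The thinned Tnfrsf18 ratio rested on 5 cells with a UMI at 3 days and 1 in the naive library. Of 524 levels, 396 stayed within the interval. At resolutions of 0.4 and 1.2, and with the superfamily genes kept, 1 B cell at 2 hours kept the name, so these gave no B cell ratio to 2 hours. At 0.4, 3 monocytes at 2 hours kept theirs, so that setting gave no monocyte ratio to 2 hours either. Leaving out a replicate gave no value with 1 library per condition. No paired analysis was possible because each condition had 1 library. The shallow 2-hour library, with a median of 878 UMIs per cell, limited what could be read for low members.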
